A study of Mus musculus with 12 samples.

Results

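MicroRNAs were compared between LLC1 cells given a single X-ray dose of 10 Gy and untreated LLC1 cells. LLC1 is a cultured line of mouse Lewis lung carcinoma. The comparison uses 6 of the 12 arrays of the study, chosen by the treatment in the labels: 3 arrays of control cells that received no dose and 3 arrays of cells that received 10 Gy at once. The other arrays hold cells given a single dose of 2 Gy (3 arrays) and cells given 5 fractions of 2 Gy, written 5x2 Gy (3 arrays). RNA was taken 4 h after irradiation. Each array is labelled a biological replicate, but whether cultures were separate is not stated, so the p-values measure only the spread between these samples, which may be technical. All groups grew in the same medium with serum and antibiotics, and no other agent or genetic change is named.

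MicroRNAs are short RNAs that guide Argonaute proteins to messenger RNAs, mostly through the seed, a run of bases near their 5′ end, and lower the output of those messages. Ionizing radiation breaks DNA, and the ATM and p53 pathway that answers the breaks also acts on microRNAs. The miR-34 family is the best known direct target of p53 among them and represses cell cycle and survival genes. The clusters of the miR-17 family, by contrast, are driven by MYC and E2F and favour proliferation, and the let-7 family restrains RAS, MYC and HMGA2.

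The sequences below are the mature forms in RefSeq (assembly GRCm38.p6), printed 5′ to 3′ with the seed, bases 2 to 8, in capitals. They are members the results turn on, set side by side so that shared seeds can be seen. RefSeq entries were matched by name for 102 of the 118 tested miRNAs, but not for miR-34c-5p. Its sequence is therefore neither printed nor compared with that of miR-34b-5p. Whether the probes of miR-34b-5p and miR-34c-5p share signal was not tested.
miR-34b-5p: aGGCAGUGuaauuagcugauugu
miR-34b-3p: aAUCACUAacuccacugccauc
miR-34c-3p: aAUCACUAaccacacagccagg
miR-107-3p: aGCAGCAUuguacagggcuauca
let-7c-5p: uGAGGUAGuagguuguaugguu
let-7g-5p: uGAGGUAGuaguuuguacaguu
miR-19a-3p: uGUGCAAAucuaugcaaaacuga
miR-19b-3p: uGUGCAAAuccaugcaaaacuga
miR-92a-3p: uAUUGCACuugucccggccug
miR-25-3p: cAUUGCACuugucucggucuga
miR-20b-5p: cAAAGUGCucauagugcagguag
miR-199a-3p: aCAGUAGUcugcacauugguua
miR-214-3p: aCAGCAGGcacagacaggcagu
The 2 passenger arms of miR-34b and miR-34c share a seed and differ at 5 of 22 positions. Mature miR-19a-3p and miR-19b-3p differ at 1 of 23 positions, outside the seed, so their probes may share signal. In the RefSeq gene table Mir34b and Mir34c are neighbours with 0 other microRNA genes between them, and so are Mir199a-2 and Mir214.

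The arrays differed in brightness, taken as the 75th percentile of signal over the 78 probes detected on all 12 arrays. It was 345.9, 110.5 and 703.3 on the control arrays and 388.1, 306.7 and 867.3 on the 10 Gy arrays, so control replicate 2 was the dimmest. Detected miRNAs numbered 75, 48 and 99 in control and 73, 62 and 115 after 10 Gy. By the barcode in the file headers, 10 Gy replicate 3 lay on a second slide with the 5x2 Gy arrays, and the other 10 Gy arrays and all control arrays shared the first slide. The 7 epithelial markers, the miR-200 family among them, were detected on 0 of the 6 arrays, as were the 5 muscle markers and the 5 nerve and liver markers. By contrast, 6 of 9 fibroblast and mesenchymal entries were detected on at least 1 control array and 7 of 9 on at least 1 array after 10 Gy. Of the 6 blood cell entries, only 2 were detected on any array of either group, the arms of miR-142a. Of these, miR-142a-3p was detected on all 6 arrays and had a change of -0.11, and miR-142a-5p was detected on 1 array per group. A level is the log2 of signal over the array's brightness, and a change is the 10 Gy mean minus the control mean. In whole-culture RNA, fewer cells that carry a miRNA and less of it per cell cannot be told apart.

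Of 118 miRNAs tested, 1 rose after 10 Gy and 0 fell at an adjusted p under 0.05 (limma with Benjamini-Hochberg adjustment), which is 0.847% of those tested. Without 1 array the count was 0 (control replicate 1, any 10 Gy array or any 5x2 Gy array), 2 (2 Gy replicate 2), 3 (control replicate 3) or 7 (control replicate 2). The called miRNA was miR-34b-5p, the guide strand of a p53 target. At an unadjusted p under 0.05 there were 24 miRNAs (20.3%), 15 of them higher (12.7%) and 9 lower (7.63%). In 18 miRNAs (15.3%) the 3 arrays of one group lay wholly above those of the other: 10 with 10 Gy above control (8.47%) and 8 with 10 Gy below (6.78%). The median change over all 118 was 0, since 48 changes were positive, 48 were negative and 22 miRNAs lay at the measuring floor (log2 -4.06) on all 6 arrays. Those 22 cannot pass any of these thresholds, yet they count in each background share given below. Among the 62 miRNAs detected on all 3 arrays of control or of 10 Gy, 13 were higher and 6 lower at an unadjusted p under 0.05. In these 62, 9 had all 10 Gy arrays above control and 7 had them below, and the median change was 0.061.

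**Figure D1:**
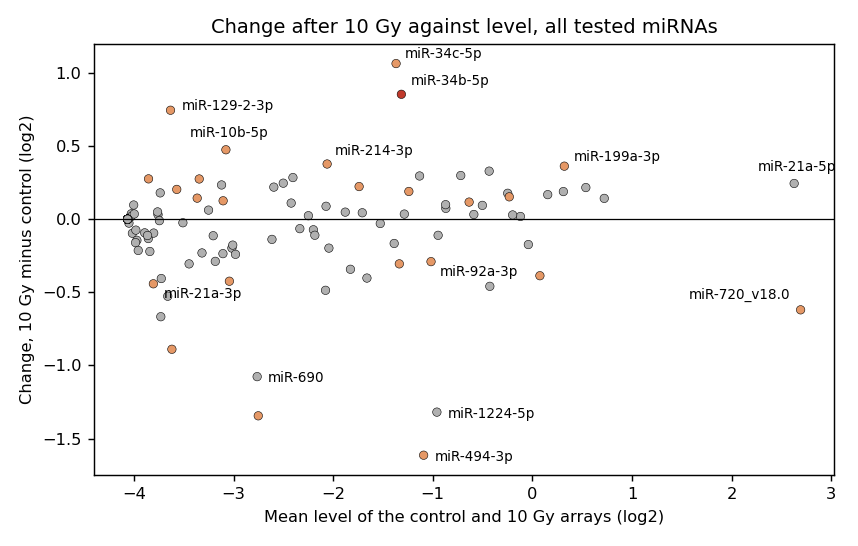
Change after 10 Gy (log2, vertical axis) against the mean level of the control and 10 Gy arrays (log2, horizontal axis), 1 point per tested miRNA. Red marks the miRNA with an adjusted p under 0.05, orange an unadjusted p under 0.05 and grey the rest; miR-34b-5p and miR-34c-5p stand highest at mid level, and miR-494-3p lies lowest at -1.61.

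On the control arrays miR-34b-5p had levels of -1.71, -1.65 and -1.87. After 10 Gy its levels were -0.92, -0.79 and -0.95. The groups do not overlap: the lowest irradiated array lay well above the highest control array. The means were -1.74 ± 0.11 in control and -0.89 ± 0.09 after 10 Gy (SD, n = 3 each). The change of 0.85 (SE 0.14, 95% interval 0.54 to 1.17) is 1.81-fold (1.45 to 2.25), with a limma adjusted p of 0.0239. Both probes of this miRNA moved alike, by 0.83 and 0.88, and on slide 1 alone the change was 0.89, though with an adjusted p of 0.358. With slide as a block the adjusted p was 0.0879 and with a replicate block 0.123. The adjusted p passed 0.05 in 13 of 27 alternative settings and ranged from 0.000159 to 0.631, while the change was positive in all 27. Many of these settings could not move the change, so they are not separate checks of its sign. The filters, the replicate block, fitting only the compared groups and omitting a 2 Gy or 5x2 Gy array left it at 0.85. Slide as a block, slide 1 alone and omitting 10 Gy replicate 3 gave the same estimate of 0.89. The call was lost without control replicate 1 (adjusted p 0.104), without 10 Gy replicate 1, 2 or 3 (0.102, 0.140 and 0.0879) and without 5x2 Gy replicate 1, 2 or 3 (0.0595, 0.0601 and 0.0584).

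Its neighbour miR-34c-5p, read from the same transcript, had control levels of -2.10, -1.21 and -2.39. The 10 Gy levels were -0.66, -0.41 and -1.43. The groups overlap by a single pair, since the dim control replicate 2 lay above 10 Gy replicate 3. The change was 1.06 (SE 0.42, 95% interval 0.10 to 2.03), with a wider spread than that of miR-34b-5p, and its limma adjusted p of 0.236 missed the threshold. Its probes gave 1.02 and 1.10, and slide 1 alone gave 1.36. Within an array miR-34c-5p minus miR-34b-5p was -0.39, 0.44 and -0.52 in control and 0.26, 0.37 and -0.48 after 10 Gy. In each group the lowest difference was on the brightest array and the highest on the dimmest; the part of brightness in it was not tested. With array brightness as a covariate, the change of miR-34c-5p was 1.44 (limma adjusted p 0.000978). That was its smallest adjusted p among the 27 alternative settings, and miR-34c-5p passed the adjusted threshold in only 2 of them. The same covariate setting called 26 miRNAs.

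The passenger arms miR-34b-3p and miR-34c-3p lay at the floor on all 6 arrays and were detected on 0 of them. The remaining family member miR-34a-5p, broadly expressed in other tissues, was detected on 0 arrays of either group and was not tested. Scaling and background correction moved the median change. Over the 74 miRNAs above the floor on all 6 arrays it was 0.030, but 0.43 with the percentile taken over all probes and 0.53 in the authors' deposited log2 table, and -0.19 after normexp background correction; single miRNAs could move by more or less than this. Against that median, miR-34b-5p stood 0.82 higher in the chosen setting and 0.91, 0.83 and 0.63 higher in those others.

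**Figure D2:**
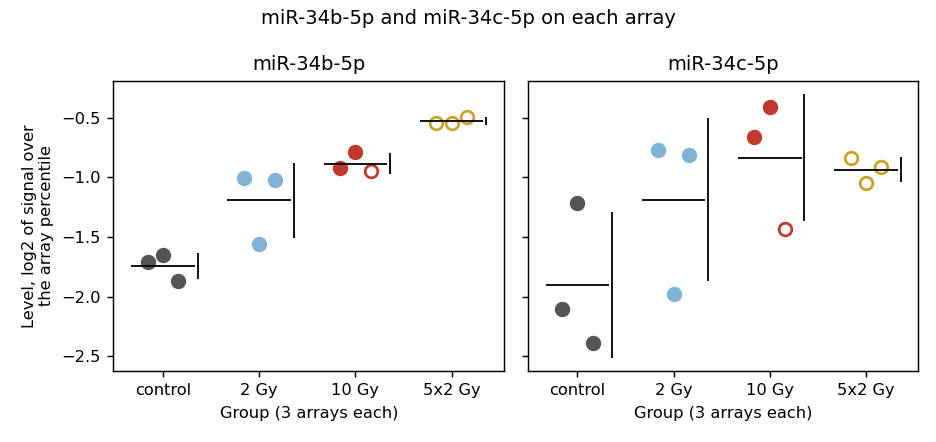
Levels of miR-34b-5p (left) and miR-34c-5p (right) on each array, as log2 of signal over the array percentile, for control, 2 Gy, 10 Gy and 5x2 Gy with 3 arrays each. Horizontal lines are group means, vertical lines span 1 SD either way and open points lie on slide 2; the 10 Gy arrays of miR-34b-5p sit between -0.95 and -0.79, above the control arrays, whereas those of miR-34c-5p overlap control.

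The p53-responsive list had 7 tested members of 12 on the array, the miR-34 arms among them. There were 4 positive changes, 1 negative and 2 at the floor, with a median of 0.10 that became -0.17 after normexp correction. In that setting the median over the 74 miRNAs above the floor on all 6 arrays was -0.19. Of the 7, 1 rose at the adjusted threshold and 3 were higher at an unadjusted p under 0.05. The background was 12.7% of all tested miRNAs, or 13 of the 62 detected throughout control or 10 Gy. The third was miR-107-3p, which is embedded in a pantothenate kinase gene and can repress CDK6 and HIF1B. Its control levels were -3.23, -3.14 and -3.13, and its 10 Gy levels -2.99, -3.08 and -3.05. The groups do not overlap, and the change was 0.13 (SE 0.03, limma adjusted p 0.103). Its probes disagreed: the brighter one gave 0.30, and the other, at the floor on most of the 6 arrays, gave -0.049. Its close relative miR-103-3p, with the same seed, had a change of 0.088. In the cell cycle regulator miR-16-5p, whose processing p53 can promote, the change was -0.17, and in miR-143-3p, a smooth muscle and fibroblast miRNA, it was 0.10.

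The miR-17 family clusters had 12 tested members of 17 on the array, and 11 changes were negative. The median was -0.29 with a range of -0.49 to 0.11, against 0 over all tested miRNAs. No member passed the adjusted threshold, 3 were lower at an unadjusted p under 0.05 (background 7.63%) and 4 had all 10 Gy arrays below all control arrays (background 6.78%). Among the 62 miRNAs detected throughout control or 10 Gy, 6 were lower at that p and 7 lay wholly below, and the median change was 0.061. The sign of the change depends on scaling. With the percentile over all probes 9 of the 12 were positive (median 0.14). In the authors' deposited table all 12 were (median 0.22). Over the 74 miRNAs above the floor on all 6 arrays, the median was 0.43 and 0.53 there, and 0.030 in the chosen setting. In each of these settings the median of the miR-17 clusters lay below that of the 74.

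The smallest p in the group belonged to miR-92a-3p, a member that targets integrin subunits. It read -0.78, -0.99 and -0.85 in control and -1.11, -1.24 and -1.13 after 10 Gy. Every irradiated array was lower than every control array, and the change was -0.29 (SE 0.07, limma adjusted p 0.103). Another member of the group, miR-19b-3p, had control levels of 0.32, 0.18 and 0.31 and 10 Gy levels of -0.12, -0.25 and 0.02. The change was -0.39 (SE 0.14, limma adjusted p 0.236). For miR-20b-5p, which carries the seed of miR-17, levels were -1.25, -1.13 and -1.16 against -1.45, -1.69 and -1.32, a change of -0.31 (SE 0.11, same adjusted p). The near-identical miR-19a-3p had a change of -0.40, also without overlap, and miR-18a-5p had -0.49 with overlap. The exception was miR-25-3p, at 0.11, although it shares the seed of miR-92a-3p.

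All 9 members of the let-7 family, counting miR-98-5p, were tested, and 8 changes were positive. Among the 62 miRNAs detected throughout control or 10 Gy, 38 were positive. Mature let-7c-5p differs from let-7a-5p at 1 of 22 positions and from let-7e-5p and miR-98-5p at 2. Probes of the family may therefore share signal, and its members are not separate readings. The median was 0.17 with a range of -0.024 to 0.30. No member passed the adjusted threshold, and 3 were higher at an unadjusted p under 0.05 (background 12.7%, or 13 of the 62 detected throughout control or 10 Gy). After normexp correction 7 of 9 were positive, with a median of 0.083. With the percentile over all probes 9 of 9 were positive (median 0.65). These signs alone are not a check of the change, since both settings also moved the median over other miRNAs. Over the 74 miRNAs above the floor throughout control and 10 Gy, that median was -0.19 and 0.43 there, and 0.030 in the chosen setting. The let-7 median lay above that of the 74 in each of these settings. Levels of let-7c-5p were -0.37, -0.24 and -0.32 in control and -0.23, -0.15 and -0.08 after 10 Gy, which do not overlap. Its change was 0.15 (SE 0.05, limma adjusted p 0.236). In let-7g-5p the levels were -1.40, -1.37 and -1.23 against -1.24, -1.14 and -1.05. They overlap narrowly between 1 control and 1 irradiated array, with a change of 0.19 (limma adjusted p 0.201). The largest change of the family was 0.30 in let-7e-5p, with overlap, and the lowest was in miR-98-5p, which was near the floor on several arrays.

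**Figure D3:**
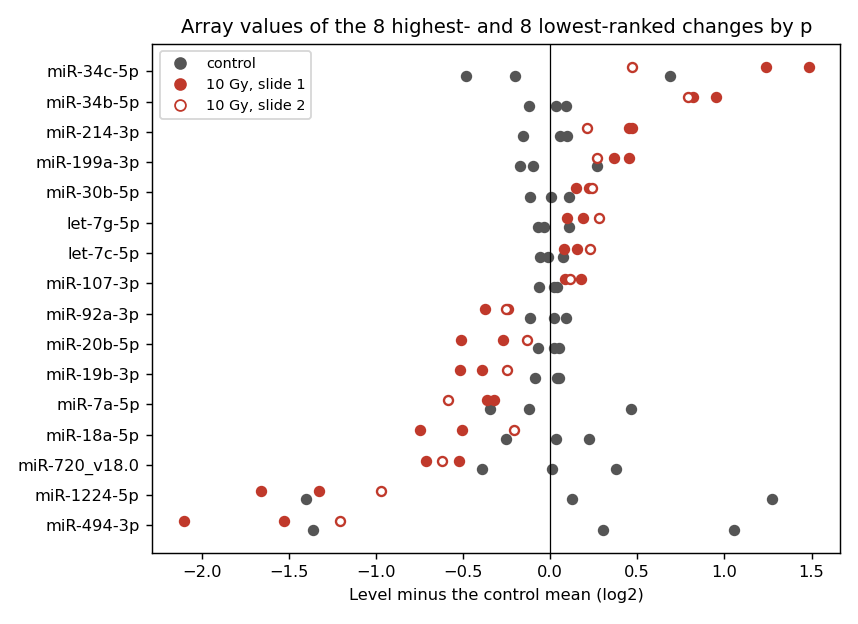
Array values of the 8 positive and 8 negative changes with the smallest p among miRNAs detected on all 3 arrays of control or of 10 Gy, as level minus that miRNA's control mean (log2). Grey points are control arrays, filled red points 10 Gy arrays on slide 1 and open red points the 10 Gy array on slide 2; miR-34b-5p is separated widely, whereas in miR-494-3p and miR-1224-5p 1 control array lies among the irradiated ones.

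Of the 8 tested fibroblast and mesenchymal entries, 6 changes were positive, 1 was negative and 1 was at the floor, with a median of 0.073. At an unadjusted p under 0.05, 3 were higher (background 12.7%), and none passed the adjusted threshold. Without overlap, 1 had all 10 Gy arrays above control (background 8.47%). Among the 62 miRNAs detected throughout control or 10 Gy, 13 were higher at that p and 9 lay wholly above. After normexp correction 7 of the 8 were negative, with a median of -0.099. In that setting the median over the 74 miRNAs above the floor on all 6 arrays was -0.19. For miR-214-3p, whose gene neighbours Mir199a-2, levels were -2.15, -2.40 and -2.19 in control and -1.80, -1.78 and -2.04 after 10 Gy. Every irradiated array was higher, with a change of 0.38 (SE 0.12, limma adjusted p 0.209). The mature miR-199a-3p, which represses MET and mTOR, read -0.04, 0.41 and 0.04 against 0.50, 0.59 and 0.41. Its change was 0.36 (limma adjusted p 0.236), and control replicate 2 touched 10 Gy replicate 3. For miR-199a-5p and miR-199b-5p the changes were 0.048 and 0.035; a difference between the arms was not tested. The Hox cluster miRNA miR-10b-5p had a change of 0.47, and miR-10a-5p, near the floor, of -0.027. Mature miR-10a-5p and miR-10b-5p differ at 1 of 23 positions.

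Among regulators of the DNA damage response, 18 of 25 entries were tested. With a median change of 0, 6 changes were positive, 8 negative and 4 at the floor, and none passed the adjusted threshold. The largest positive change was that of miR-129-2-3p, at -4.05, -4.06 and -3.90 in control and -3.26, -3.18 and -3.34 after 10 Gy. The arrays do not overlap, but the miRNA was detected on only 1 control and 2 irradiated arrays, so no fold is given; the change was 0.75 (SE 0.18, limma adjusted p 0.103). With the floor doubled it was 0. The most negative changes were -0.49 in miR-18a-5p, a repressor of ATM, and -0.42 in miR-7a-5p, which targets EGFR. For miR-24-3p, a repressor of H2AX, the change was 0.095.

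The family of miR-15, miR-16 and miR-322 represses cyclins and BCL2. Of its 9 entries 5 were tested, 4 of them with the seed AGCAGCA, and the median was -0.072. The change was 0.22 in miR-322-5p, whose arrays do not overlap, 0.30 in miR-15b-5p, -0.17 in miR-16-5p and -0.11 in miR-503-5p. The miR-29 and miR-30 families, regulators of matrix genes and of differentiation, had 8 of 10 entries tested and a median of 0.023. At an unadjusted p under 0.05 there was 1 of the 8 (background 20.3%), miR-30b-5p, at -3.67, -3.79 and -3.56 against -3.45, -3.52 and -3.43, a change of 0.20 (limma adjusted p 0.236). Of its 2 probes, 1 lay at the floor on all 6 arrays and the other gave 0.41. This miRNA was detected on only 2 of the 3 control arrays.

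Carcinoma-linked miRNAs had 14 of 18 entries tested and a median of -0.0049, and none passed the adjusted threshold. The oncogenic miR-21a-5p read 2.23, 3.00 and 2.29 in control and 2.88, 2.98 and 2.39 after 10 Gy. The groups overlap, and the change was 0.24 (95% interval -0.35 to 0.84). For its passenger arm miR-21a-3p the levels were -3.80, -3.20 and -3.75 against -4.06, -4.06 and -3.95. Only 1 array per group had it detected, and 2 of the irradiated values are the floor itself, so the separation and the difference of -0.44 (limma adjusted p 0.201) depend on where the floor is set. With the floor doubled the difference was 0, and with a floor 4 times lower -0.89. The metastasis-linked miR-31-5p had a change of -0.46 and miR-23a-3p, of the cluster with miR-24, one of 0.33, both with overlap. Of the 6 tested inflammation entries of 9, 0 had an unadjusted p under 0.05 (background 20.3%) and the median was -0.060.

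**Figure D4:**
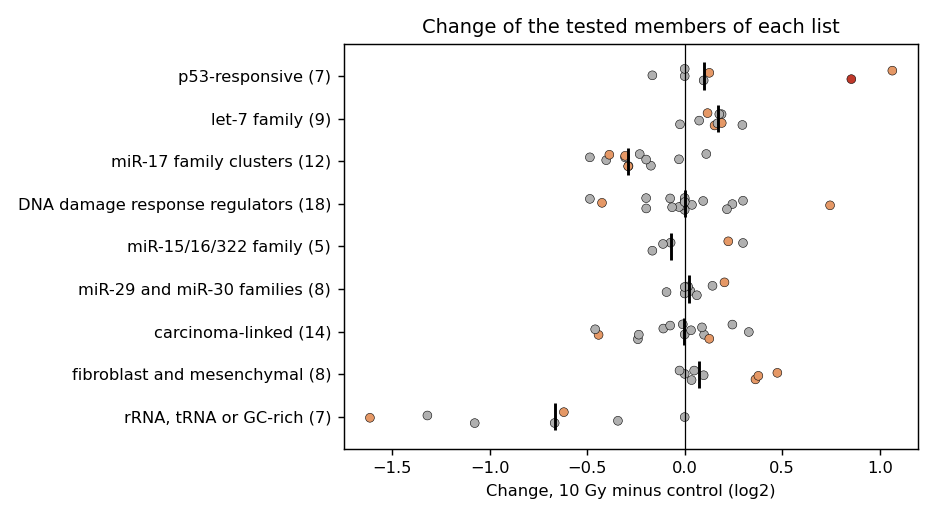
Change after 10 Gy (log2) of the tested members of 9 lists, with the number tested in brackets; black bars are medians, red marks an adjusted p under 0.05, orange an unadjusted p under 0.05 and grey the rest. The let-7 members lie mostly right of 0 and the miR-17 clusters mostly left of it, and the rRNA, tRNA or GC-rich entries reach -1.61.

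The list of entries often traced to rRNA or tRNA, or rich in GC, held miR-494-3p and miR-1224-5p. Their mature sequences have 45.5% and 66.7% GC, so the list's name does not describe each member. Of 7 tested among 9 on the array, 6 changes were negative and 1 was at the floor, with a median of -0.67. In each alternative scaling 6 or 7 of the 7 were negative. None passed the adjusted threshold and 2 were lower at an unadjusted p under 0.05 (background 7.63%). The entry miR-720_v18.0, an old array name for a tRNA fragment, read 3.38, 3.02 and 2.61 in control and 2.48, 2.29 and 2.38 after 10 Gy. No array overlaps, with a change of -0.62 (SE 0.17, limma adjusted p 0.140). For miR-494-3p the levels were 0.77, -1.65 and 0.02 against -1.81, -2.39 and -1.49. The change of -1.61 (SE 0.66, limma adjusted p 0.236) was the most negative of all, but the control arrays spanned a wider range than that. Likewise miR-1224-5p read 0.97, -1.70 and -0.17 against -1.63, -1.96 and -1.27 (change -1.32, SE 0.59, limma adjusted p 0.242).

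The mean level of that list on the control arrays was -0.53, -2.08 and -1.21, with the lowest value on the dimmest array, and -2.04, -2.32 and -1.87 after 10 Gy. Control replicate 2 thus lay among the irradiated arrays. Without it, 7 miRNAs passed the adjusted threshold (2 higher, 5 lower), miR-1224-5p and miR-92a-3p among the lower; the part of this array in the list's values was not tested. The other list members had changes of -1.08 (miR-690), -0.67 (miR-188-5p) and -0.34 (miR-709), and miR-712-5p was at the floor. The value of miR-188-5p, which is also the list's median, is set by the floor, where this entry lay on all 3 irradiated arrays and on control replicate 2; it was -0.20 with the floor doubled. Over the 64 miRNAs above the floor with a RefSeq sequence, the change and the GC percentage of the mature sequence had a Pearson r of -0.32 and a Spearman rho of -0.33; this runs across miRNAs that share the 6 arrays.

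The lower single dose was set beside 10 Gy in the same fit. Between 10 Gy and 2 Gy 0 of 118 miRNAs (0%) passed the adjusted threshold in limma, and 2 (1.69%) had an unadjusted p under 0.05, let-7c-5p (0.16 higher after 10 Gy) and miR-125a-5p (0.13 higher). Levels of miR-34b-5p after 2 Gy were -1.0, -1.56 and -1.02. Of these, 2 lay near the irradiated arrays at 10 Gy and 1 near control. The difference of 10 Gy minus 2 Gy was 0.31 (95% interval -0.0072 to 0.62, limma adjusted p 1). For miR-34c-5p it was 0.35 (95% interval -0.62 to 1.32). Against control, 2 Gy gave a difference of 0.55 in miR-34b-5p, and 0 miRNAs passed the adjusted threshold there; both comparisons share the control arrays.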

How the data were processed

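Small RNA of 12 samples was measured on Agilent 1-colour miRNA arrays with Cy3, per the labels' protocols. Spot intensity in the deposited scanner files came from Agilent Feature Extraction; its version, 10.7.3.1, is from the submitters' processing notes. Processed and background-subtracted signals were equal at every spot. Deposited spot flags (control, outlier, well above background, saturated) served as filters. The authors' own log2 table was compared with the scanner files: every column is the logarithm of that signal, raised to 1 where lower, plus a constant giving a mean of 1.98 (within 1e-04 in all 12 columns). Column medians ran from -0.19 to 1.14. The array design is on mm9, per the file headers, so no coordinates are given.

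Of 12493 spots per array, 953 controls were left out, and the 11340 spots of mouse entries were used. Among these 11340, the outlier spots (2.06 to 4.98%) were left out, and none was saturated. Each probe's spots were averaged, divided by the array's 75th percentile over probes detected on all arrays, floored at 0.0598 and converted to log2. Detection of a probe required more than 0.5 of its spots above background, and probes detected on 3 or more arrays were averaged per miRNA. Tested were the 118 of 566 mouse entries detected on all 3 arrays of a group; 56 of them qualified only through the 2 Gy or 5x2 Gy arrays. Testing used limma 3.58.1 (R 4.3.3) over all 12 arrays, two-sided, with 8 residual and 0.45 prior degrees of freedom and no covariates. The pipeline was tested on simulated data. The number of arrays limits the precision.

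Named are every called miRNA, the 8 positive and 8 negative changes with the smallest p among the 62 miRNAs detected on all 3 arrays of control or of 10 Gy, the tested members of the p53, mesenchymal and rRNA, tRNA or GC-rich lists, and the 2 largest changes in each direction of the let-7, miR-17, damage response, miR-15 and carcinoma lists. Others (miR-34a-5p, miR-103-3p, miR-142a, miR-24-3p and miR-125a-5p) were chosen after their values were seen. The comparison and the lists were chosen with earlier results of these data known. Alternatives changed the scaling, background, floor, probe summary, filter, slide, replicate block, brightness and samples. No 2 arrays held identical values.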

Additional observations from a re-analysis of the deposited data

How the results depend on the processing

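In the comparison of 10 Gy with control, 1 miRNA passed the adjusted threshold. The count was 2 after quantile normalization (miR-34b-5p and miR-107-3p), 2 with the brightest probe only and 2 with only the compared groups fitted. It was 0 in the authors' deposited table, 0 with no filter on dim miRNAs, 0 with slide as a block and 0 on slide 1 only, and 26 with array brightness as a covariate (14 higher, 12 lower). Leaving out 1 array gave 0 to 7. Other miRNAs made up the single call with the percentile over all probes (miR-34c-5p) and after normexp on median signals (miR-690, lower), which, like the total gene signal, was chosen after seeing the data. With a replicate block the count was 0. Deviations from the group means had correlations of -0.23, 0.73 and 0.68 between same-numbered arrays. Since 1 pair was below 0.1, the numbers were not taken to pair the arrays. These correlations cannot settle pairing, because replicate 2 was the dimmest and replicate 3 the brightest array in control and in 10 Gy. Whether cultures or days were shared is not stated. For 10 Gy against 2 Gy the count was 0 in all 27 settings. Of 1095 values of named miRNAs, 1014 neither turned sign nor crossed the threshold, 26 newly passed it, 14 lost it and 41 turned sign. The cause was not tested. The 1014 are not separate checks. Some settings, such as omitting a 2 Gy or 5x2 Gy array, cannot alter the change itself, and a change of 0 at the floor cannot turn sign. After normexp the turned values were -0.17 in miR-107-3p, -0.020 in miR-214-3p, -0.27 in miR-30b-5p, -0.33 in miR-143-3p, -0.12 in miR-199a-5p, -0.077 in miR-199b-5p, -0.082 in miR-10b-5p, -0.18 in miR-25-3p, -0.073 in miR-129-2-3p and -0.012 in miR-322-5p. With all probes in the percentile they were 0.19 in miR-92a-3p, 0.098 in miR-19b-3p, 0.18 in miR-20b-5p, 0.32 in miR-16-5p, 0.44 in miR-98-5p, 0.082 in miR-19a-3p and 0.026 in miR-31-5p. In the authors' table they were 0.20 in miR-92a-3p, 0.088 in miR-19b-3p, 0.18 in miR-20b-5p, 0.010 in miR-18a-5p, 0.32 in miR-16-5p, 1.196 in miR-10a-5p, 0.17 in miR-709, 0.45 in miR-98-5p, 0.083 in miR-19a-3p, 0.58 in miR-503-5p and 0.023 in miR-31-5p. For miR-10a-5p quantile normalization gave 0.041 and a floor 4 times lower 0.52, which gave 0.023 in miR-503-5p. For miR-98-5p quantile normalization gave 0.11, the total gene signal 0.32, the slide block and slide 1 alone 0.22 and the brightness covariate 0.33. Leaving out 1 array gave -0.015 to 0.11 in miR-199a-5p, -0.040 to 0.10 in miR-199b-5p, -0.040 to 2.7461e-05 in miR-10a-5p and -0.28 to 0.47 in miR-98-5p. Dim arrays limit the low miRNAs, since the lowest detected signal (log2) ran from -5.29 on 10 Gy replicate 3 to -1.91 on control replicate 2.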

Other observations

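Some miRNAs outside the lists above also separated the groups, and they are named here after their values were seen. Levels of miR-151-5p, which lies in an intron of the focal adhesion kinase gene, were -3.57, -3.42 and -3.46 in control and -3.17, -3.10 and -3.35 after 10 Gy. They do not overlap, with a change of 0.28 (limma adjusted p 0.236). The same held for miR-350-3p, at -3.59, -3.37 and -3.35 against -3.29, -3.23 and -3.35, with the nearest 2 arrays almost level, a change of 0.14 and the same adjusted p. In the other direction miR-27b-3p, a regulator of lipid metabolism genes, read -2.97, -2.72 and -3.07 against -3.10, -3.07 and -3.12. The nearest arrays were again almost level, and its change was -0.18 (limma adjusted p 0.261). Each of these 3 was detected on only 2 of the 3 control arrays. With them, the non-overlapping miRNAs outside the named ones were completed by let-7a-5p (change 0.19) and miR-193a-3p (change -0.20).

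The old array entries miR-689_v15.0 and miR-714 had differences of -1.34 and -0.89 (limma adjusted p 0.236 each). Levels of miR-689_v15.0 were -0.89, -3.44 and -1.91 in control and -3.46, -3.55 and -3.27 after 10 Gy. Levels of miR-714 were -2.48, -4.06 and -2.98 in control and at the floor of -4.06 on all 3 irradiated arrays, so its difference depends on where the floor is set. In both, control replicate 2, the dimmest array, read as low as or close to the irradiated ones, as it did for miR-494-3p and miR-1224-5p; its part in these values was not tested.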
